A study of Mus musculus with 24 samples.

Results

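Extra Ebf1 was given to Pax5-deficient pro-B cells, and the RNA of these cells was compared with that of Pax5-deficient cells given the empty vector. The comparison takes 4 of the 14 RNA libraries, in a series of 24 samples, and covers every gene that passed a filter on low counts, 14550 of 24506. The libraries were 2 of Pax5-KO cells with pMiG encoding Ebf1 and 2 of Pax5-KO cells with empty pMiG. Used beside them were 2 libraries each of Ebf1-KO cells with Ebf1 or with empty pMiG, of Pax5-KO cells with Pax5, and of wild-type cells with empty pMiG. The fit also took in the 2 libraries of Ebf1-KO cells with Pax5, so that 7 groups shared 1 estimate of the spread. All were cultured pro-B cells from fetal liver on the C57BL6/J background, carried a pMiG retroviral vector, and grew on OP9 stromal cells with IL-7 and the ligands of KIT and FLT3. The labels do not say whether the cells that took up the vector were sorted, nor whether replicates came from separate fetuses or cultures. Levels are counts per M (mega) of library size after TMM scaling (CPM), listed for replicate 1 and then replicate 2. Each adjusted p is from edgeR's quasi-likelihood test with Benjamini-Hochberg adjustment over all genes tested, except where DESeq2 is named. A gene was called at an adjusted p under 0.05.

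EBF1 is a DNA-binding factor that B cell precursors need to enter the B lineage. It acts with the E protein TCF3, opens chromatin at B cell genes and is known to activate genes of the pre-B receptor (Igll1, Vpreb1, Cd79a, Cd79b), Foxo1 and Pax5. PAX5 acts after it and commits the cells: it activates further B cell genes and represses genes of other blood lineages. Mouse pro-B cells that lack PAX5 still express Ebf1 and part of the early B programme, and are known for keeping the ability to form T, NK and myeloid cells. The comparison asks what a higher dose of EBF1 does when PAX5 cannot act.

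The libraries with Ebf1 held 18.6 and 42.1 M exon counts and those with the empty vector 22.4 and 31.3 M. The 42.1 M was the most of all 14 libraries, and the least was 16.1 M. Exon counts made up 32.4 and 65.4% of the total in the column header with Ebf1, against 44.4 and 60.4% with the empty vector. The 65.4% was the highest share of the 14. Genes with any count numbered 13225 and 14323 with Ebf1, against 15568 and 14569 with the empty vector, and 13225 was the lowest of the 14. The replicates with Ebf1 were the least alike of the 7 groups: their log2 CPM had a Pearson correlation of 0.895, against 0.958 for the empty-vector pair and 0.971 for the most alike pair. Replicate numbers coincide with a tag in the column names whose meaning the headers do not give, and each group has 1 library per tag, so no value within a tag can be tested. All 4 Pax5-KO libraries expressed Xist and had Y-linked genes at or near 0. Xist itself stood at 10430.0 and 2595 CPM with Ebf1, against 4649.8 and 2679 with the empty vector. In wild-type cells the 5 sex-linked genes, Xist among them, summed to only 254 and 288 CPM. Genes known from OP9-type stroma were scarce: 8 of 16 passed the filter, and the list summed to 45.5 and 21.8 CPM with Ebf1, against 39.4 and 33.2 with the empty vector, with Cxcl12 at 0 in all 4 libraries.

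Ebf1 rose to a level above that of wild-type cells. Ebf1 (NM_007897, chromosome 11, 44618100 to 45008096, mm10) had 1644 and 1483 CPM with Ebf1, against 315 and 241 with the empty vector (log2 fold change 2.49 ± 0.20 SE, adjusted p = 2.9e-05). Wild-type libraries had 966 and 1102 CPM, and Ebf1-KO libraries had 857 and 893 with the same vector, against 244 and 282 with the empty vector. So exon counts show a residue of Ebf1 in its own knockout too. With the empty vector, the Ebf1-KO and Pax5-KO libraries overlapped in Ebf1 level. Exon counts do not separate transcripts of the vector from those of the cell, and they do not measure EBF1 protein. Pax5 (NM_008782, chromosome 4, 44531506 to 44710440, mm10), which EBF1 is known to activate and whose exon counts still show a residue in these knockout cells, had 9.61 and 9.07 CPM with Ebf1, against 20.1 and 12.3 with the empty vector (log2 fold change -0.79 ± 0.27 SE, adjusted p = 0.13). Its libraries with Ebf1 lay below both empty-vector libraries without passing the test, and Pax5 shares its span with 5730488B01Rik and Mir5120. Myc, a driver of growth and division and the stated subject of the series, had 307 and 445 CPM with Ebf1, against 277 and 344 with the empty vector (log2 fold change 0.28 ± 0.25 SE, adjusted p = 0.57), so the groups overlapped.

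Across all genes, 255 were called higher with Ebf1, which is 1.75% of the 14550 tested, and 269 were called lower, which is 1.85% (together 524, or 3.60%). The median log2 fold change of the higher genes was 1.56 and that of the lower genes -2.11, against -0.04 over all genes tested, and setting genes at 0 counts in 1 group at their bound left these 3 medians at 1.56, -2.11 and -0.04. Each of the 524 genes had both Ebf1 libraries on one side of both empty-vector libraries. Over all genes tested, 17.7% were so separated upward and 24.4% downward. So separate groups, where named for a gene below, add no support to its call and are common among genes not called. In 11 of the higher genes the empty-vector libraries had 0 counts, and in 39 of the lower genes the Ebf1 libraries had 0 counts. Of the 255 genes called higher, 143 averaged at least 100 CPM in the Ebf1 libraries, and 64 of the 269 lower genes averaged that much in the empty-vector libraries. Each level is that of the group where the gene is higher, and the share over all genes tested was not counted. Calls depended on single libraries. Without the empty-vector replicate 2 there were 48 genes higher and 67 lower, and without the empty-vector replicate 1 there were 120 and 185; without the Ebf1 replicate 2 there were 827 and 1360. Of the called genes, 43 higher and 56 lower passed in all 4 such fits, and 0 changed sign. A fit of these 4 libraries alone, with its own estimate of the spread, called 53 higher and 14 lower. Of the 72 called genes that the naming rule picked, 16 passed in that fit, among them Ebf1, Lef1, Ly6d, Rasgrp3, Il2rb, Ccr9, Gzma, Apoa4, Ret and Eps8l2.

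**Figure D1:**
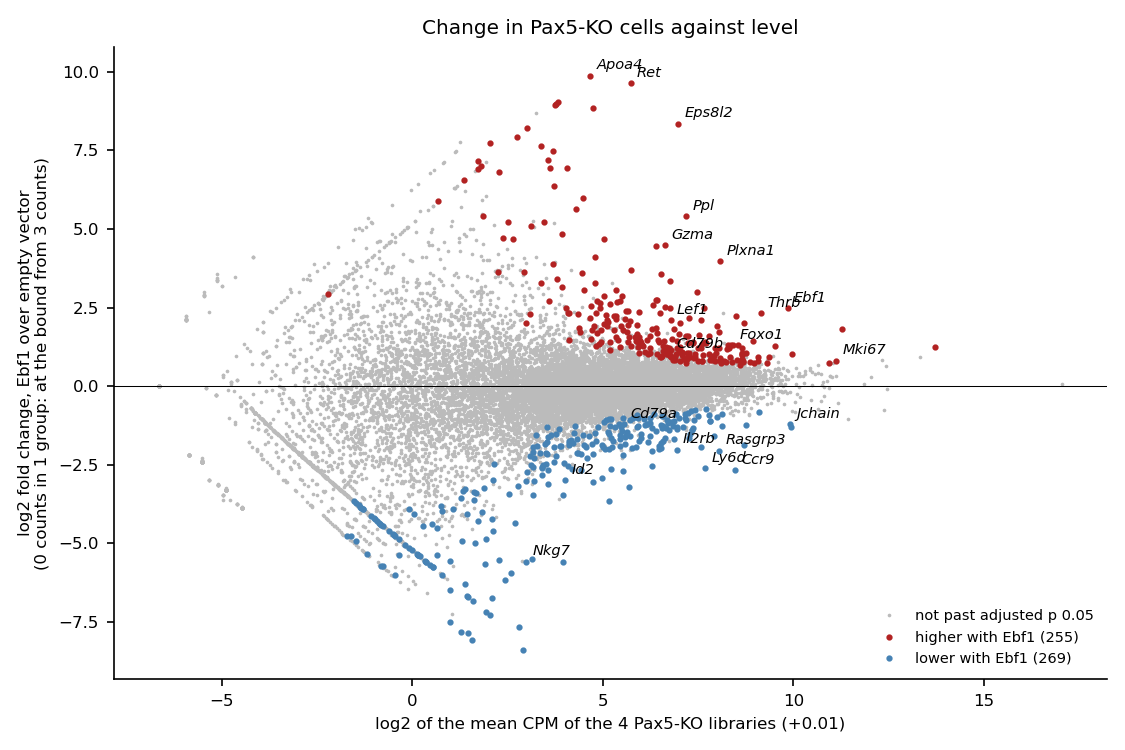
Log2 fold change of each gene tested in Pax5-KO cells, Ebf1 over empty vector (vertical), against the log2 mean CPM of the 4 libraries plus 0.01 (horizontal). Red points are the 255 genes higher with Ebf1 and blue points the 269 lower; genes at 0 counts in 1 group and over 3 counts in the other are drawn at the bound given by 3 counts, and the called genes that reach the highest levels are mostly red.

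Some regulators of early B cell development rose. Of 30 tested genes in a list of B lineage and lymphoid regulators 6 rose and 0 fell, with a median log2 fold change of 0.54. Over all genes tested 1.75% were called higher and 1.85% lower, the shares beside which this and later list counts stand. The lists and their members were chosen with earlier results of these data known. A list count above those shares can follow from that choice. Foxo1, a forkhead factor that activates the recombinase genes, had 498 and 471 CPM with Ebf1, against 189.6 and 204 with the empty vector (log2 fold change 1.30 ± 0.17 SE, adjusted p = 9.6e-04). The libraries of each group lay close together and far from the other group, and wild-type cells had 588 and 638 CPM. Lef1, a partner of beta-catenin that early B cells express, had 149.6 and 207 CPM with Ebf1, against 43.6 and 39.9 with the empty vector (log2 fold change 2.09 ± 0.30 SE, adjusted p = 0.0016). Bach2, a repressor that promotes B over myeloid development, had 219 and 309.6 CPM with Ebf1, against 120.4 and 109 with the empty vector (log2 fold change 1.21 ± 0.21 SE, adjusted p = 0.0053). Pou2af1, a coactivator that works with octamer-binding factors, had 205 and 298 CPM with Ebf1, against 131 and 83.2 with the empty vector (log2 fold change 1.23 ± 0.26 SE, adjusted p = 0.016). These 3 stayed below the wild-type libraries, which had 382 and 404 CPM of Lef1, 995 and 1268 of Bach2 and 2979.9 and 2803 of Pou2af1. The other 2 were Myb, a progenitor factor, with 605 and 807 CPM with Ebf1, against 349 and 388 with the empty vector (log2 fold change 0.94 ± 0.19 SE, adjusted p = 0.015), and Pou2f1, an octamer-binding factor, with 320.1 and 362 CPM with Ebf1, against 229.7 and 166 with the empty vector (log2 fold change 0.79 ± 0.20 SE, adjusted p = 0.038). Both groups were separate for each of them. Bach2 overlaps Bach2os, and Pou2f1 overlaps Cd247, so these pairs can share reads. Ikzf1, the zinc finger factor Ikaros, had 739 and 955 CPM with Ebf1, against 995 and 987 with the empty vector (log2 fold change -0.23 ± 0.21 SE, adjusted p = 0.58), and Spi1, the factor PU.1, had 43.9 and 49.4 CPM with Ebf1, against 91.8 and 81.2 with the empty vector (log2 fold change -0.89 ± 0.37 SE, adjusted p = 0.19). Pou2f1 (adjusted p = 0.060) did not pass without the Ebf1 replicate 1. Pou2f1 (adjusted p = 0.055) did not pass without the Ebf1 replicate 2. Myb (adjusted p = 0.10) did not pass without the empty-vector replicate 1. Bach2 (adjusted p = 0.082), Pou2af1 (0.20), Myb (0.092) and Pou2f1 (0.31) did not pass without the empty-vector replicate 2.

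The early B lineage list of 31 genes, all tested, split: 9 rose, 4 fell and 18 did not pass (median log2 fold change 0.70). Summed over the list, the level was 6141 and 6079 CPM with Ebf1, against 3021 and 3196 with the empty vector, and 18107 and 17784 CPM in wild-type cells. The genes that rose and the sum include Ebf1 itself, which the vector carries. Ebf1 alone had 1644 and 1483 CPM with Ebf1, against 315 and 241 with the empty vector. Foxo1, Lef1, Bach2, Pou2af1, Rag1 and Rag2 rose here and are also counted in other lists of this report. The signalling chains of the B cell receptor went opposite ways. Cd79b had 168 and 121 CPM with Ebf1, against 63.5 and 80.5 with the empty vector (log2 fold change 1.00 ± 0.22 SE, adjusted p = 0.019), while Cd79a had 31.8 and 25.4 CPM with Ebf1, against 79.0 and 52.4 with the empty vector (log2 fold change -1.20 ± 0.25 SE, adjusted p = 0.016). So each Ebf1 library held more Cd79b and less Cd79a than either empty-vector library, and both genes stayed below wild-type cells, with 571 and 456 CPM of Cd79b and 611 and 427 of Cd79a. Genes of the surrogate light chain did not pass. Igll1 had 1074 and 802 CPM with Ebf1, against 419 and 536 with the empty vector (log2 fold change 0.97 ± 0.51 SE, adjusted p = 0.30), and Vpreb1 had 225 and 189.8 CPM with Ebf1, against 53.5 and 107 with the empty vector (log2 fold change 1.37 ± 0.43 SE, adjusted p = 0.094). For both the Ebf1 libraries lay above the empty-vector libraries. Vpreb2, with 96.5 and 58.9 CPM with Ebf1, against 63.8 and 68.9 with the empty vector (log2 fold change 0.23 ± 0.38 SE, adjusted p = 0.79), overlapped between the groups, and Vpreb1 and Vpreb2 are near-identical genes that can share reads. Cd79b (adjusted p = 0.11) did not pass without the Ebf1 replicate 1. Vpreb1 (adjusted p = 0.049) passed without the Ebf1 replicate 2. Cd79a (adjusted p = 0.10) and Cd79b (0.13) did not pass without the empty-vector replicate 1. Cd79b (adjusted p = 0.072) did not pass without the empty-vector replicate 2.

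Other members of that list moved strongly. Cplx2, a complexin expressed in early B cells, had 58.1 and 41.6 CPM with Ebf1, against 6.87 and 8.13 with the empty vector (log2 fold change 2.73 ± 0.28 SE, adjusted p = 2.3e-04), with 586 and 557 CPM in wild-type cells. Ly6d, a surface marker of lymphoid progenitors that have entered the B path, fell in spite of its place in the list, with 70.5 and 46.2 CPM with Ebf1, against 299 and 409 with the empty vector (log2 fold change -2.60 ± 0.38 SE, adjusted p = 0.0016); the wild-type libraries, at 125 and 83.4 CPM, lay between the groups. Cd38, an ectoenzyme, had 0 and 0.829 CPM with Ebf1, against 2.56 and 6.99 with the empty vector (log2 fold change -3.26 ± 0.74 SE, adjusted p = 0.025), and Cd72, a B cell lectin, had 4.02 and 8.44 CPM with Ebf1, against 19.0 and 18.5 with the empty vector (log2 fold change -1.57 ± 0.31 SE, adjusted p = 0.012). Both were far higher in wild-type cells, at 126 and 125 CPM for Cd38 and 73.0 and 62.0 for Cd72. Cplx2 and Ly6d passed without each of the 4 libraries in turn. Cd38 (adjusted p = 0.26) and Cd72 (0.076) did not pass without the empty-vector replicate 2.

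The recombinase genes rose together. Of 12 genes for V(D)J recombination, which joins antigen receptor gene segments, 2 rose and 0 fell (median log2 fold change 0.79). Of all genes tested 1.75% were called higher. Rag1 had 379 and 472 CPM with Ebf1, against 213 and 162 with the empty vector (log2 fold change 1.18 ± 0.21 SE, adjusted p = 0.0071), and Rag2 had 81.6 and 114 CPM with Ebf1, against 43.1 and 52.4 with the empty vector (log2 fold change 1.03 ± 0.21 SE, adjusted p = 0.014). The groups were separate for both, and wild-type cells held more, at 854 and 1184 CPM for Rag1 and 205 and 192 for Rag2. Dntt, the polymerase that adds bases at the joints, had 0.601 and 2.19 CPM with Ebf1, against 2.89 and 2.95 with the empty vector (log2 fold change -1.04 ± 0.80 SE, adjusted p = 0.49). Xrcc6, a subunit of the Ku end-joining complex, had 97.2 and 148 CPM with Ebf1, against 195 and 161 with the empty vector (log2 fold change -0.54 ± 0.22 SE, adjusted p = 0.18), with the groups separate but the call missed. Rag2 overlaps B230118H07Rik. Xrcc6 (adjusted p = 0.020) passed without the Ebf1 replicate 2. Rag2 (adjusted p = 0.10) did not pass without the empty-vector replicate 1. Rag1 (adjusted p = 0.11) and Rag2 (0.069) did not pass without the empty-vector replicate 2.

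Among 20 pre-B receptor kinases and adaptors, 1 rose and 2 fell. Prkcb, a protein kinase C, had 603 and 647 CPM with Ebf1, against 386 and 370.5 with the empty vector (log2 fold change 0.72 ± 0.17 SE, adjusted p = 0.035). Rasgrp3, an exchange factor that activates RAS, had 102 and 104 CPM with Ebf1, against 379 and 477 with the empty vector (log2 fold change -2.05 ± 0.30 SE, adjusted p = 0.0018), and wild-type cells had 28.6 and 32.5 CPM. Ptpn6, the phosphatase SHP-1, had 27.8 and 41.0 CPM with Ebf1, against 94.7 and 73.9 with the empty vector (log2 fold change -1.29 ± 0.26 SE, adjusted p = 0.013). The kinase Blk, a member of the SRC family, had 7.75 and 0.804 CPM with Ebf1, against 5.03 and 3.33 with the empty vector (log2 fold change 0.01 ± 1.06 SE, adjusted p = 1.0), so its Ebf1 libraries stood above and below both empty-vector libraries. Prkcb (adjusted p = 0.060) and Ptpn6 (0.062) did not pass without the Ebf1 replicate 1. Prkcb (adjusted p = 0.10) and Ptpn6 (0.077) did not pass without the empty-vector replicate 1. Prkcb (adjusted p = 0.21) did not pass without the empty-vector replicate 2.

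**Figure D2:**
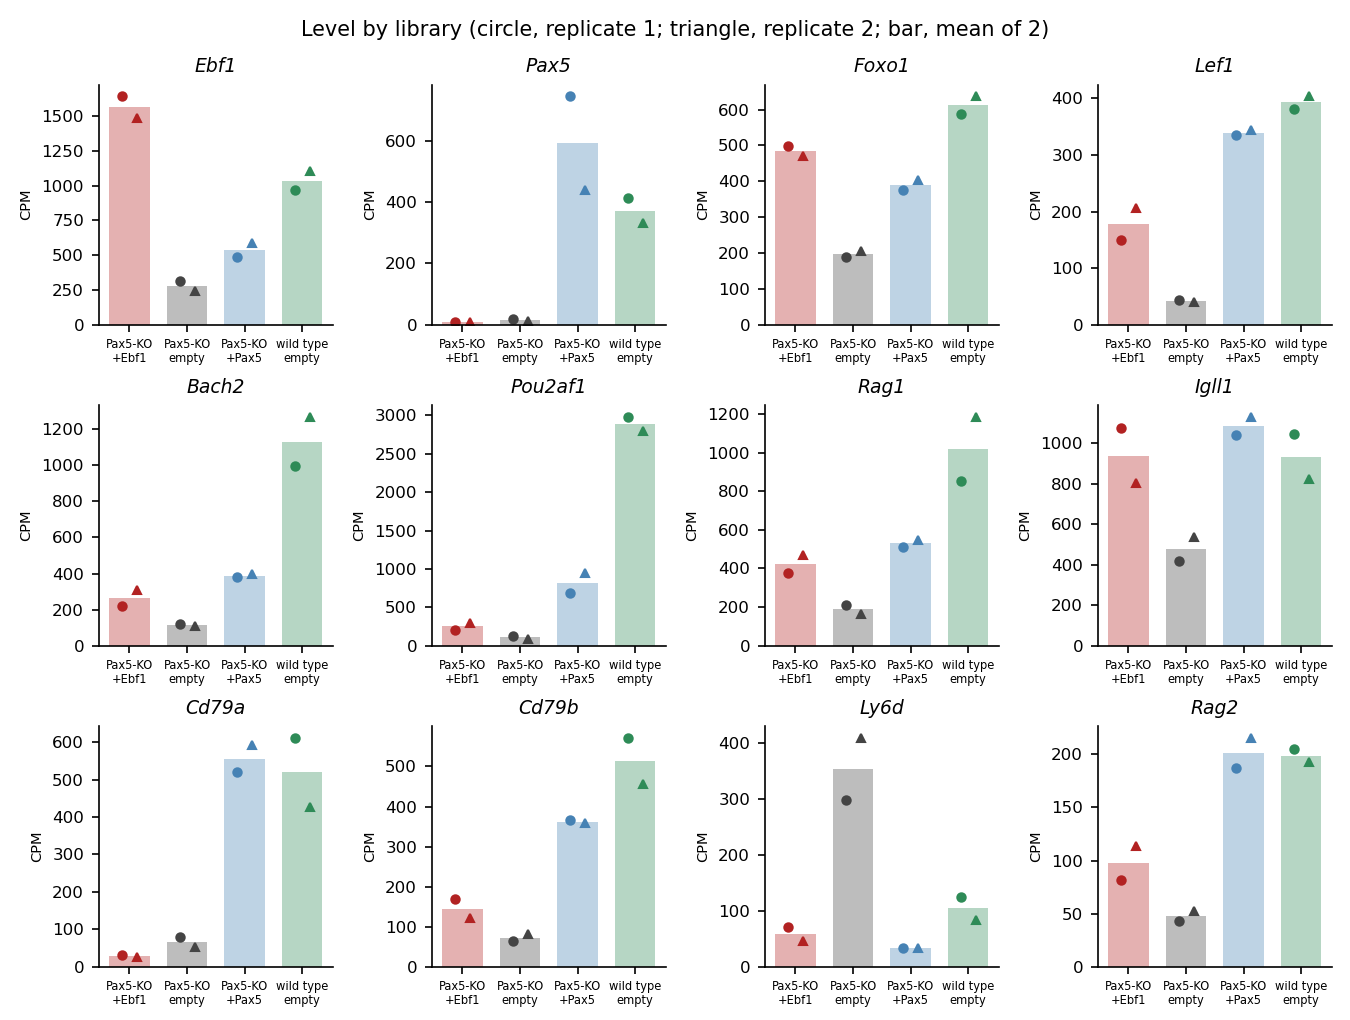
CPM of 12 B lineage genes by library, for Pax5-KO cells with Ebf1, with the empty vector and with Pax5, and wild-type cells with the empty vector; circles are replicate 1, triangles replicate 2 and bars the mean of 2. Foxo1, Lef1, Bach2, Pou2af1, Rag1, Rag2 and Cd79b are higher with Ebf1 than with the empty vector, and Cd79a and Ly6d are lower.

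The inhibitors of E proteins fell, all 3 that were tested of 4. ID proteins bind E proteins such as TCF3 and keep them off DNA. Id2, which NK and innate lymphoid cells need, had 1.74 and 5.37 CPM with Ebf1, against 23.2 and 34.3 with the empty vector (log2 fold change -2.99 ± 0.54 SE, adjusted p = 0.0075). Id3 had 3.30 and 1.96 CPM with Ebf1, against 12.8 and 16.5 with the empty vector (log2 fold change -2.50 ± 0.40 SE, adjusted p = 0.0034). For both, each Ebf1 library lay well under each empty-vector library. Id1 was scarce in both groups, with 0 and 0.0251 CPM with Ebf1, against 1.33 and 0.380 with the empty vector (ratio of the rates without Ebf1 to those with it 41.9, counting interval 7.11 to 1694, adjusted p = 0.045); the interval covers counting error only. Wild-type cells had 1.76 and 4.01 CPM of Id2 and 61.1 and 47.5 of Id3, so Id2 moved toward the wild-type level and Id3 away from it. Id1 (adjusted p = 0.11) did not pass without the Ebf1 replicate 1. Id1 (adjusted p = 0.14) did not pass without the empty-vector replicate 1. Id1 (adjusted p = 0.081) and Id2 (0.075) did not pass without the empty-vector replicate 2.

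Several genes of NK and innate lymphoid cells fell. Of 22 tested in a list of 24, 5 fell, 1 rose and 16 did not pass, and 19 of 22 had a fitted change below 0, as had 7577 of all 14550 genes tested. Of all genes tested 1.85% were called lower and 1.75% higher. The median log2 fold change of the list was -1.88, or -1.82 with genes at 0 counts in 1 group at their bound. The list summed to 472 and 379 CPM with Ebf1, against 752 and 938 with the empty vector. Nkg7, a protein of cytotoxic granules, had 0 and 0.527 CPM with Ebf1, against 15.9 and 15.2 with the empty vector (log2 fold change -5.57 ± 0.87 SE, adjusted p = 0.0028). Il2rb, a receptor chain for IL-2 and IL-15, had 42.3 and 55.0 CPM with Ebf1, against 181 and 213 with the empty vector (log2 fold change -2.02 ± 0.27 SE, adjusted p = 0.0010). Cd7, an early marker of T and NK progenitors, had 16.3 and 29.2 CPM with Ebf1, against 125 and 141 with the empty vector (log2 fold change -2.54 ± 0.39 SE, adjusted p = 0.0024), and Klrb1c, the NK receptor NK1.1, had 1.86 and 3.37 CPM with Ebf1, against 16.9 and 20.3 with the empty vector (log2 fold change -2.82 ± 0.60 SE, adjusted p = 0.018). The groups were far apart in all 4, and wild-type cells held little of any of them, at 0.104 and 0.172 CPM for Il2rb and 0 and 0.114 for Cd7. Gzma, a protease of cytotoxic granules, went the other way, with 256 and 127 CPM with Ebf1, against 10.6 and 6.46 with the empty vector (log2 fold change 4.49 ± 1.12 SE, adjusted p = 0.041), and both Ebf1 libraries stood above wild-type cells, at 0 and 0.401 CPM. Prf1, which codes for perforin, was at 0 in 3 of the 4 libraries, and Gzmb had 0.420 and 0 CPM with Ebf1, against 2.84 and 2.54 with the empty vector. In bulk RNA, fewer cells of a type and less RNA per cell cannot be told apart. DESeq2 did not call Gzma (adjusted p = 0.094). Klrb1c (adjusted p = 0.054) and Gzma (0.091) did not pass without the Ebf1 replicate 1. Klrb1c (adjusted p = 0.051) and Gzma (0.14) did not pass without the empty-vector replicate 1. Klrb1c (adjusted p = 0.13) and Gzma (0.31) did not pass without the empty-vector replicate 2.

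T lineage genes gave few calls: of 22 tested among 26, 1 rose and 1 fell (median log2 fold change -0.64), and the list summed to 1215 and 1471 CPM with Ebf1, against 1676 and 1774 with the empty vector. Cd247, the zeta chain that T and NK receptors signal through, had 106 and 80.1 CPM with Ebf1, against 45.2 and 29.9 with the empty vector (log2 fold change 1.31 ± 0.28 SE, adjusted p = 0.019), with the overlap with Pou2f1 given above. Cd28, a costimulatory receptor, had 17.8 and 29.4 CPM with Ebf1, against 52.9 and 44.0 with the empty vector (log2 fold change -1.03 ± 0.26 SE, adjusted p = 0.040). Tcf7, the T cell factor TCF1, had 86.1 and 116 CPM with Ebf1, against 184 and 228 with the empty vector (log2 fold change -1.03 ± 0.37 SE, adjusted p = 0.13), and Notch1, the receptor that starts T development, had 559 and 665 CPM with Ebf1, against 811 and 775 with the empty vector (log2 fold change -0.37 ± 0.19 SE, adjusted p = 0.28). In both the Ebf1 libraries lay below the empty-vector libraries without passing the test, and DESeq2 called Tcf7 (adjusted p = 0.041). Ptcra, the pre-T receptor alpha chain, had 0 and 0.553 CPM with Ebf1, against 10.5 and 18.4 with the empty vector (log2 fold change -5.57 ± 1.51 SE, adjusted p = 0.064). Bcl11b, a factor of committed T cells, was at 0 in all 4 libraries. Cd247 (adjusted p = 0.076) and Cd28 (0.14) did not pass without the Ebf1 replicate 1. Cd28 (adjusted p = 0.14) did not pass without the empty-vector replicate 1. Cd247 (adjusted p = 0.21) and Cd28 (0.12) did not pass without the empty-vector replicate 2.

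Among myeloid genes 1 call was made. Of 23 tested, 1 fell and 0 rose (median log2 fold change -0.24), and they summed to 673 and 655 CPM with Ebf1, against 767 and 944 with the empty vector. The gene that fell was Ly86, a partner of a Toll-like receptor relative on B and myeloid cells, with 0 and 0 CPM with Ebf1, against 1.47 and 2.92 with the empty vector (at least 41.4-fold lower, adjusted p = 0.0017). Lyz2, which codes for lysozyme, had 154 and 76.1 CPM with Ebf1, against 162 and 159 with the empty vector (log2 fold change -0.48 ± 0.37 SE, adjusted p = 0.50), and Cebpa, a factor of myeloid progenitors, had 0 and 0.753 CPM with Ebf1, against 0.427 and 0.146 with the empty vector. Among 9 erythroid and megakaryocyte genes tested 0 passed, and the list summed to 1014 and 659.8 CPM with Ebf1, against 899 and 853 with the empty vector, nearly all of it Tfrc, the transferrin receptor. Of 16 stem and progenitor genes 1 fell: Mycn, a relative of Myc, with 5.11 and 14.3 CPM with Ebf1, against 43.2 and 28.7 with the empty vector (log2 fold change -1.87 ± 0.41 SE, adjusted p = 0.020). Flt3, a receptor of lymphoid progenitors that PAX5 is known to repress, had 195 and 189 CPM with Ebf1, against 237 and 239.9 with the empty vector (log2 fold change -0.31 ± 0.20 SE, adjusted p = 0.39), against 2.38 and 3.43 CPM in wild-type cells. Kit, the receptor for KIT ligand, had 44.2 and 41.9 CPM with Ebf1, against 76.0 and 68.9 with the empty vector (log2 fold change -0.75 ± 0.25 SE, adjusted p = 0.12). Of the stroma list, Fn1, which codes for fibronectin, fell, with 0 and 0 CPM with Ebf1, against 0.948 and 0.643 with the empty vector (at least 15.0-fold lower, adjusted p = 0.047). Mycn (adjusted p = 0.063) and Fn1 (0.098) did not pass without the Ebf1 replicate 1. Fn1 (adjusted p = 0.080) did not pass without the Ebf1 replicate 2. Mycn (adjusted p = 0.11) and Fn1 (0.10) did not pass without the empty-vector replicate 1. Mycn (adjusted p = 0.059) and Fn1 (0.14) did not pass without the empty-vector replicate 2.

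Several receptors for homing fell as well. Of 15 homing and adhesion genes, 5 fell and 0 rose (median log2 fold change -0.69), where 1.85% of all genes tested were called lower. Ccr9, a chemokine receptor that guides progenitors to the thymus, had 122 and 70.0 CPM with Ebf1, against 543 and 686 with the empty vector (log2 fold change -2.68 ± 0.31 SE, adjusted p = 3.3e-04), and wild-type cells had 2.23 and 1.77 CPM. Ccr7, a receptor for lymph node chemokines, had 4.93 and 15.3 CPM with Ebf1, against 50.9 and 77.3 with the empty vector (log2 fold change -2.64 ± 0.48 SE, adjusted p = 0.0073). Cxcr5, a receptor for B cell follicles, had 27.9 and 54.4 CPM with Ebf1, against 139.8 and 147 with the empty vector (log2 fold change -1.80 ± 0.41 SE, adjusted p = 0.027). All 3 had separate groups. The integrin chains Itgb7, with 4.57 and 14.9 CPM with Ebf1, against 36.5 and 50.6 with the empty vector (log2 fold change -2.15 ± 0.44 SE, adjusted p = 0.016), and Itgal, with 176 and 156 CPM with Ebf1, against 331 and 460.1 with the empty vector (log2 fold change -1.25 ± 0.23 SE, adjusted p = 0.0075), fell too. Itga4, the most abundant integrin chain of the list, had 434 and 292 CPM with Ebf1, against 512 and 662 with the empty vector (log2 fold change -0.69 ± 0.23 SE, adjusted p = 0.12). Cxcr5 overlaps Bcl9l. Cxcr5 (adjusted p = 0.11) did not pass without the Ebf1 replicate 1. Cxcr5 (adjusted p = 0.081) did not pass without the empty-vector replicate 1. Ccr7 (adjusted p = 0.081), Cxcr5 (0.16), Itgb7 (0.14) and Itgal (0.10) did not pass without the empty-vector replicate 2.

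In the MHC class II list, whose products present peptides to T cells, 3 of 10 fell, 0 rose, and all 10 had a fitted change below 0 (median log2 fold change -1.83). Of all genes tested 1.85% were called lower, and 7577 of 14550 had a fitted change below 0. Cd74, the invariant chain and the most abundant member, fell to 141 and 102 CPM with Ebf1, against 259 and 470.0 with the empty vector (log2 fold change -1.58 ± 0.34 SE, adjusted p = 0.019). H2-Eb1, a beta chain, had 0 and 0.327 CPM with Ebf1, against 2.32 and 4.18 with the empty vector (log2 fold change -3.98 ± 0.79 SE, adjusted p = 0.013). Ciita, the activator of this gene set, had 0 and 0 CPM with Ebf1, against 0.901 and 0.497 with the empty vector (at least 13.2-fold lower, adjusted p = 0.044). Levels of H2-Eb1 and Ciita were low in both groups, and Cd74 overlaps Mir5107. H2-DMa, which helps load peptides, had 1.86 and 24.5 CPM with Ebf1, against 39.9 and 60.0 with the empty vector (log2 fold change -1.90 ± 0.72 SE, adjusted p = 0.16). Ciita (adjusted p = 0.086) did not pass without the Ebf1 replicate 1. Ciita (adjusted p = 0.091) did not pass without the Ebf1 replicate 2. H2-DMa (adjusted p = 4.5e-04) passed without the Ebf1 replicate 2. Ciita (adjusted p = 0.11) did not pass without the empty-vector replicate 1. Cd74 (adjusted p = 0.23), H2-Eb1 (0.11) and Ciita (0.12) did not pass without the empty-vector replicate 2.

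**Figure D3:**
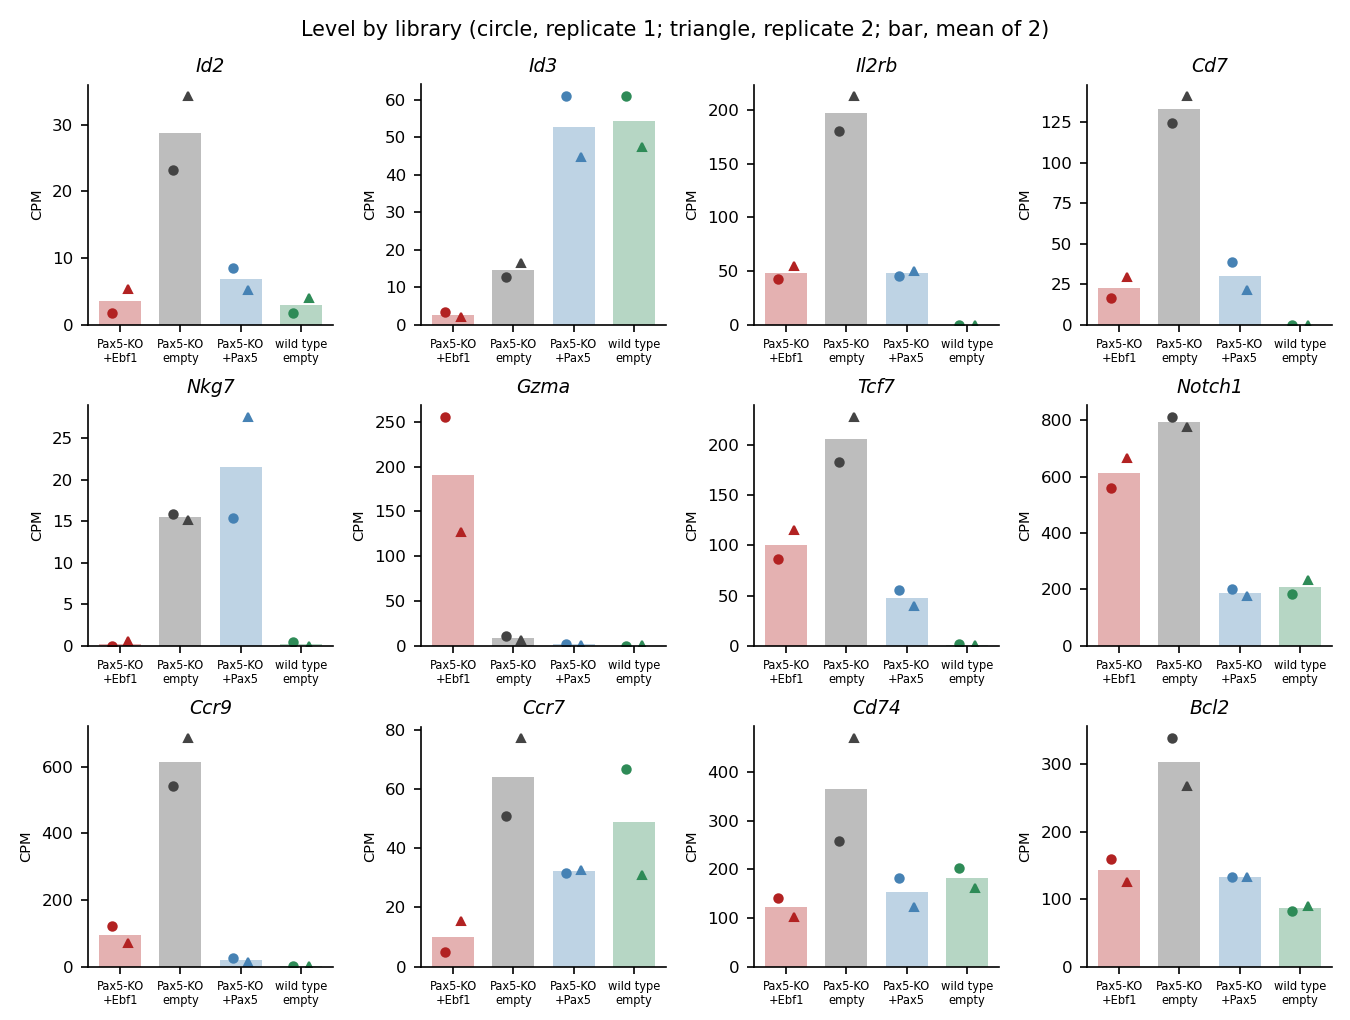
CPM of 12 genes outside the B lineage list by library, for Pax5-KO cells with Ebf1, with the empty vector and with Pax5, and wild-type cells with the empty vector; circles are replicate 1, triangles replicate 2 and bars the mean of 2. Gzma is higher with Ebf1 than with the empty vector; Id2, Id3, Il2rb, Cd7, Nkg7, Ccr9, Ccr7, Cd74 and Bcl2 are lower, and Tcf7 and Notch1 did not pass the test.

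Few genes of growth and division passed the test. In DNA replication and G1/S 2 of 28 genes rose, and in mitosis 1 of 20 rose, with 0 lower in either list and medians of 0.22 and 0.25 log2 units. E2f2, a factor for S phase genes, had 238 and 354 CPM with Ebf1, against 90.1 and 134 with the empty vector (log2 fold change 1.40 ± 0.24 SE, adjusted p = 0.0054). Ccnd3, the cyclin that pre-B cells depend on, had 495 and 676 CPM with Ebf1, against 270.5 and 291 with the empty vector (log2 fold change 1.06 ± 0.23 SE, adjusted p = 0.022) and overlaps Bysl. Mki67, a nuclear protein of cycling cells, had 2946 and 2735 CPM with Ebf1, against 1761 and 1469.7 with the empty vector (log2 fold change 0.81 ± 0.19 SE, adjusted p = 0.028). Groups were separate in all 3. Cdk6, a kinase partner of D cyclins, had 2435 and 2804 CPM with Ebf1, against 1893 and 1267 with the empty vector (log2 fold change 0.73 ± 0.21 SE, adjusted p = 0.075), and Ccnd2 had 1373 and 2077 CPM with Ebf1, against 1346 and 1296 with the empty vector (log2 fold change 0.39 ± 0.23 SE, adjusted p = 0.37). Of the Myc and MAX network, 1 of 12 rose and 1 fell: Mlxip, a glucose-sensing factor, had 209.5 and 174 CPM with Ebf1, against 114 and 92.2 with the empty vector (log2 fold change 0.90 ± 0.19 SE, adjusted p = 0.019), and the gene that fell was Mycn. Ribosome biogenesis (26 genes), glycolysis (19 genes) and cell cycle brakes (17 genes) had 0 calls, with medians of -0.02, -0.11 and 0.00 log2 units. DESeq2 called Cdk6 (adjusted p = 0.0080). Mki67 (adjusted p = 0.098) and Mlxip (0.088) did not pass without the Ebf1 replicate 1. Ccnd3 (adjusted p = 0.053) did not pass without the Ebf1 replicate 2. E2f2 (adjusted p = 0.061), Ccnd3 (0.12) and Mki67 (0.070) did not pass without the empty-vector replicate 1. Cdk6 (adjusted p = 0.046) passed without the empty-vector replicate 1. Ccnd3 (adjusted p = 0.14), Mki67 (0.23) and Mlxip (0.20) did not pass without the empty-vector replicate 2.

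Signalling and survival lists had 1 call each or 1 each way. Pim2, a survival kinase downstream of cytokines, was the 1 of 17 IL-7 and cytokine receptor signalling genes that fell, with 63.4 and 55.1 CPM with Ebf1, against 130.3 and 180.4 with the empty vector (log2 fold change -1.39 ± 0.25 SE, adjusted p = 0.0082). Il7r, a receptor chain for IL-7, had 369 and 253 CPM with Ebf1, against 311 and 337 with the empty vector (log2 fold change -0.06 ± 0.20 SE, adjusted p = 0.91). Inpp4b, a phosphatase that opposes PI3K, was the 1 of 20 PI3K pathway genes that fell, with 30.7 and 11.1 CPM with Ebf1, against 49.7 and 82.1 with the empty vector (log2 fold change -1.67 ± 0.39 SE, adjusted p = 0.030). Bcl2, which protects cells from apoptosis, was the 1 of 15 BCL2 family genes that fell, with 160.2 and 125 CPM with Ebf1, against 339 and 268 with the empty vector (log2 fold change -1.09 ± 0.20 SE, adjusted p = 0.0075). For these 3 each Ebf1 library lay below each empty-vector library. Among 18 interferon response genes, Usp18 rose, with 125 and 62.0 CPM with Ebf1, against 40.6 and 36.1 with the empty vector (log2 fold change 1.28 ± 0.31 SE, adjusted p = 0.035), and Oasl2 fell, with 18.9 and 52.7 CPM with Ebf1, against 127 and 159 with the empty vector (log2 fold change -1.99 ± 0.40 SE, adjusted p = 0.013). Of the 5 sex-linked genes 0 passed. Usp18 (adjusted p = 0.22) did not pass without the Ebf1 replicate 1. Bcl2 (adjusted p = 0.057) and Usp18 (0.11) did not pass without the empty-vector replicate 1. Pim2 (adjusted p = 0.12), Inpp4b (0.27), Usp18 (0.25) and Oasl2 (0.11) did not pass without the empty-vector replicate 2.

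**Figure D4:**
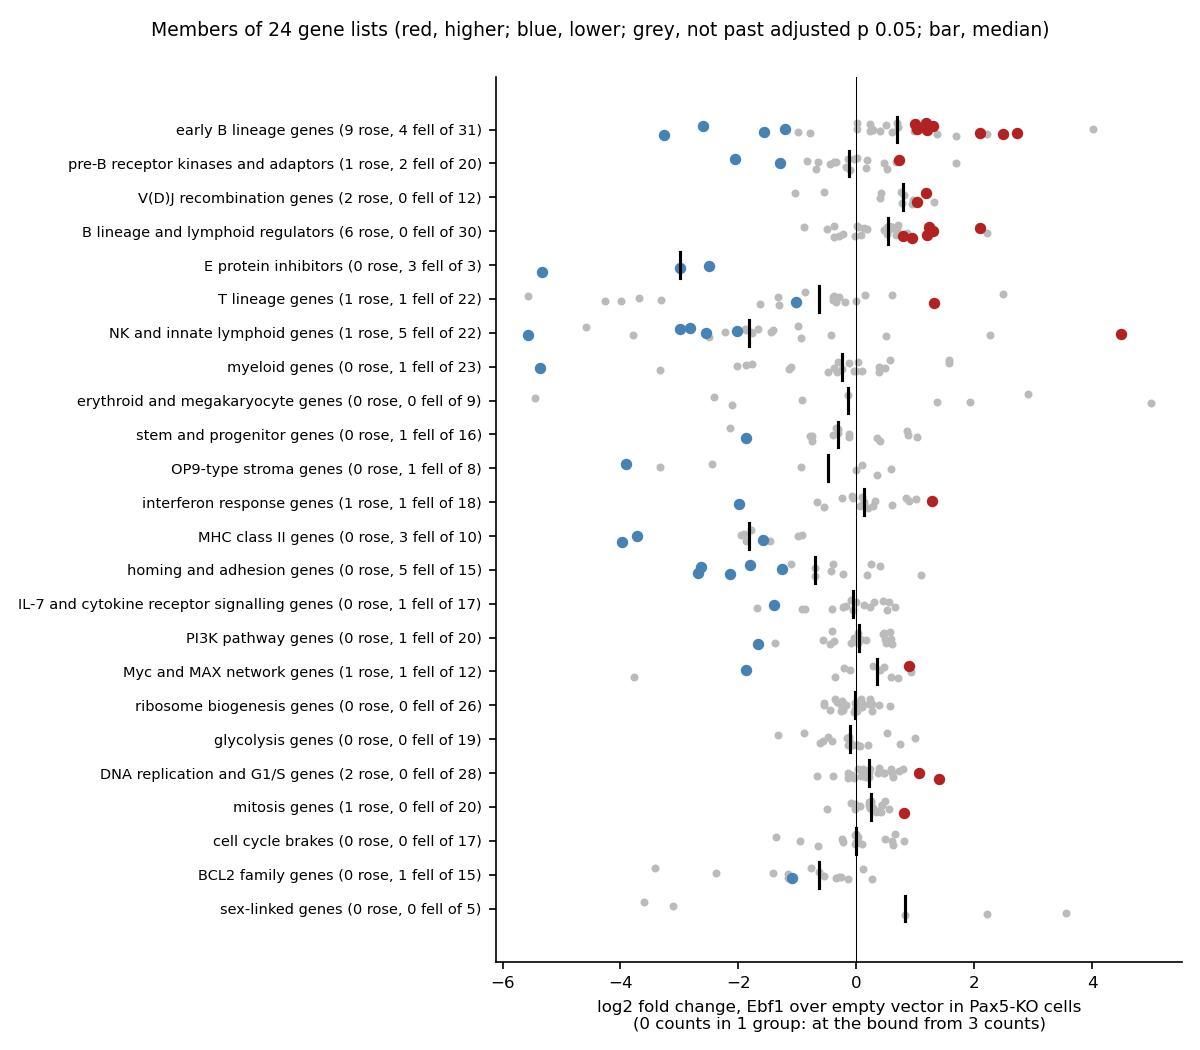
Log2 fold change, Ebf1 over empty vector in Pax5-KO cells, of each tested member of the 24 gene lists; each dot is a gene (red higher, blue lower, grey not past an adjusted p of 0.05) and black bars are medians, with genes at 0 counts in 1 group and over 3 in the other at the bound given by 3 counts. The E protein inhibitors, NK and innate lymphoid and MHC class II lists have the lowest medians. The early B lineage list has 9 red and 4 blue dots, and Ebf1, which the vector carries, is among the red.

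Called genes that averaged at least 1 CPM in the higher group were then ranked by fitted log2 fold change. At 0 counts in 1 group that value depends on the prior count, so the ranking favours genes with 0 counts in a group. The 15 genes ranked highest had at most 1.28 CPM in either empty-vector library. Apoa4, an apolipoprotein of gut and liver, had 48.9 and 53.1 CPM with Ebf1, against 0 and 0 with the empty vector (at least 940.2-fold higher, adjusted p = 1.5e-04). Fetub, a liver protease inhibitor, had 17.0 and 15.4 CPM with Ebf1, against 0 and 0 with the empty vector (at least 298-fold higher, adjusted p = 0.0042). Both were near 0 in wild-type cells. Ret, a receptor tyrosine kinase for GDNF family ligands, had 61.5 and 151 CPM with Ebf1, against 0.142 and 0.117 with the empty vector (log2 fold change 9.65 ± 1.17 SE, adjusted p = 7.9e-04). Sdk2, a cell adhesion protein of synapses, had 32.3 and 22.0 CPM with Ebf1, against 0 and 0 with the empty vector (at least 500.2-fold higher, adjusted p = 0.0014), and Bean1 had 36.6 and 20.5 CPM with Ebf1, against 0 and 0 with the empty vector (at least 526-fold higher, adjusted p = 0.0038). Eps8l2, an actin regulator, had 239 and 261 CPM with Ebf1, against 1.28 and 0.351 with the empty vector (log2 fold change 8.35 ± 0.80 SE, adjusted p = 1.5e-04), and its overlapping gene B230206H07Rik had 68.8 and 38.5 CPM with Ebf1, against 0.142 and 0.0877 with the empty vector. These 2 can share reads. Tusc5, a fat cell protein of glucose transporter traffic, had 13.1 and 40.1 CPM with Ebf1, against 0 and 0 with the empty vector (at least 490.2-fold higher, adjusted p = 0.0043). Others of the 15 were Efna3, Gucy2g, Enpp3, Rtn4rl2, Ppef1 and Lrguk. Efna3, an ephrin, rested on 1 library, with 26.1 and 0.578 CPM with Ebf1, against 0 and 0 with the empty vector, and so did Gucy2g, a guanylate cyclase, with 13.4 and 0.502 CPM with Ebf1, against 0 and 0 with the empty vector. DESeq2 did not call Fetub (adjusted p = 0.19), Bean1 (0.13) or Enpp3 (0.26). Efna3 (adjusted p = 0.23), Gucy2g (0.16), Enpp3 (0.062), Rtn4rl2 (0.074) and Ppef1 (0.069) did not pass without the Ebf1 replicate 1. Efna3 (adjusted p = 0.14), Gucy2g (0.12), Enpp3 (0.11), Rtn4rl2 (0.12), Ppef1 (0.13) and Lrguk (0.069) did not pass without the empty-vector replicate 1. Bean1 (adjusted p = 0.060), Tusc5 (0.072), Fetub (0.055), Efna3 (0.26), Gucy2g (0.23), Enpp3 (0.21), Rtn4rl2 (0.23), Ppef1 (0.26) and Lrguk (0.072) did not pass without the empty-vector replicate 2.

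The 15 genes at the other end of this ranking were all at 0 counts in both Ebf1 libraries and between 0.806 and 12.4 CPM in the empty-vector libraries. Glis3, a zinc finger factor of pancreas and kidney, had 0 and 0 CPM with Ebf1, against 2.89 and 12.4 with the empty vector (at least 144-fold lower, adjusted p = 0.014). Tspan9, a tetraspanin, had 0 and 0 CPM with Ebf1, against 3.03 and 3.80 with the empty vector (at least 64.3-fold lower, adjusted p = 0.0041). Both empty-vector libraries expressed both. Sp7, the bone factor osterix, had 0 and 0 CPM with Ebf1, against 1.09 and 4.68 with the empty vector (at least 54.3-fold lower, adjusted p = 0.014). Cyp11a1, the enzyme that starts steroid synthesis, had 0 and 0 CPM with Ebf1, against 2.51 and 2.95 with the empty vector (at least 51.4-fold lower, adjusted p = 0.024). Sapcd1, which overlaps Vwa7, had 0 and 0 CPM with Ebf1, against 0.806 and 4.94 with the empty vector (at least 54.1-fold lower, adjusted p = 0.0016). Others of the 15 were Scin, Serinc2, Prss2, Disc1, Hs3st1, Colgalt2, Ly86, Spaca9 and Mtfp1, of which Prss2, a trypsin, belongs to a family of near copies. Scin (adjusted p = 0.088), Serinc2 (0.082), Prss2 (0.10), Cyp11a1 (0.057), Disc1 (0.054), Hs3st1 (0.061) and Spaca9 (0.065) did not pass without the Ebf1 replicate 1. Scin (adjusted p = 0.057), Serinc2 (0.053) and Prss2 (0.066) did not pass without the Ebf1 replicate 2. Scin (adjusted p = 0.072), Serinc2 (0.085), Prss2 (0.080), Cyp11a1 (0.053), Disc1 (0.065), Hs3st1 (0.065) and Spaca9 (0.054) did not pass without the empty-vector replicate 1. Scin (adjusted p = 0.16), Glis3 (0.11), Serinc2 (0.15), Prss2 (0.21), Sp7 (0.096), Cyp11a1 (0.10), Disc1 (0.074), Hs3st1 (0.092), Spaca9 (0.13) and Mtfp1 (0.072) did not pass without the empty-vector replicate 2.

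Levels were then set beside wild-type cells, as a description with no test. As given above, wild-type and Pax5-KO libraries also differed in sex-linked genes, and the part of this in the distances was not tested. On the scale of log2(CPM + 1), 118 of the 255 genes called higher (46.3%) and 149 of the 269 called lower (55.4%) had an Ebf1 mean nearer to the wild-type mean than the empty-vector mean was. Among all genes tested the share was 48.6%. Ccr9, Il2rb and Foxo1 are examples of genes that came nearer to wild-type levels, and Apoa4, Gzma and Cd79a of genes that went farther from them.

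Pax5-KO cells given Ebf1 were also set beside those given Pax5 in the same vector. Between Pax5-KO cells with Ebf1 and with Pax5, 529 genes were higher with Ebf1 (3.64%) and 463 lower (3.18%). Some B cell genes were lower with Ebf1 than with Pax5. Cd79a had 31.8 and 25.4 CPM with Ebf1, against 519 and 592 with Pax5 (log2 difference -4.28 ± 0.28 SE, adjusted p = 8.7e-07). Pou2af1 had 205 and 298 CPM with Ebf1, against 681 and 942 with Pax5 (log2 difference -1.69 ± 0.26 SE, adjusted p = 0.0012). Other genes went the opposite way: Flt3 had 195 and 189 CPM with Ebf1, against 22.4 and 20.5 with Pax5 (log2 difference 3.16 ± 0.22 SE, adjusted p = 9.1e-07). Flt3 and Notch1 are genes that PAX5 is known to repress, and both were higher with Ebf1. Notch1 had 559 and 665 CPM with Ebf1, against 199.7 and 175 with Pax5 (log2 difference 1.71 ± 0.19 SE, adjusted p = 9.9e-05). Ccr9 had 122 and 70.0 CPM with Ebf1, against 25.6 and 14.4 with Pax5 (log2 difference 2.27 ± 0.31 SE, adjusted p = 4.2e-04). For several genes the vectors gave levels that this test did not separate, which does not show them equal. Foxo1 had 498 and 471 CPM with Ebf1, against 376 and 404 with Pax5 (log2 difference 0.31 ± 0.17 SE, adjusted p = 0.28). Rag1 had 379 and 472 CPM with Ebf1, against 511 and 548 with Pax5 (log2 difference -0.32 ± 0.21 SE, adjusted p = 0.39). Il2rb had 42.3 and 55.0 CPM with Ebf1, against 45.8 and 50.2 with Pax5 (log2 difference 0.02 ± 0.26 SE, adjusted p = 0.98). By contrast, the test did separate Gzma, with 256 and 127 CPM with Ebf1, against 2.00 and 1.10 with Pax5 (log2 difference 6.96 ± 1.28 SE, adjusted p = 0.0045). Leaving out 1 of these 4 libraries gave 159 to 1165 genes higher and 177 to 1439 lower: 185 and 184 without the Pax5 replicate 1, 159 and 177 without the Pax5 replicate 2, and 1165 and 1439 without the Ebf1 replicate 2.

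The same Ebf1 vector was also put into Ebf1-KO cells, which share no library with the Pax5-KO comparison. There, 321 genes were higher with Ebf1 than with the empty vector (2.21%) and 111 lower (0.763%). Of the 255 genes called higher in Pax5-KO cells 128 were called higher in Ebf1-KO cells, which is 50.2% of the Pax5-KO genes and 39.9% of the 321 Ebf1-KO genes. Of the 269 called lower 44 were called lower there, which is 16.4% of the Pax5-KO genes and 39.6% of the 111. In 1 case a gene higher in Pax5-KO cells was lower in Ebf1-KO cells, and in 8 cases the reverse. Apoa4 was among the genes that rose in both, with 39.4 and 37.9 CPM in Ebf1-KO cells with Ebf1, against 0 and 0 with the empty vector. Il2rb had 14.1 and 16.3 CPM in Ebf1-KO cells with Ebf1, against 62.4 and 104 with the empty vector, and Gzma 69.6 and 41.3 CPM with Ebf1, against 2.01 and 0.311 with the empty vector. Pax5-KO and Ebf1-KO libraries also differed in sex-linked genes: Xist had 4649.8 and 2679 CPM in Pax5-KO and 1.24 and 1.52 in Ebf1-KO cells with the empty vector, and the Y-linked Kdm5d 0 and 0.0877 CPM in Pax5-KO and 131 and 101 in Ebf1-KO cells. The part of this in the difference between backgrounds was not tested.

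A test of the difference between the backgrounds called 5 genes with a higher log2 effect of Ebf1 in Pax5-KO cells than in Ebf1-KO cells (0.0344%) and 84 with a lower one (0.577%). Leaving out 1 of the 8 libraries gave 0 to 128 and 44 to 499. Of 31 early B lineage genes 17 were called, each with the lower log2 effect in Pax5-KO cells. Pou2af1 stood at 205 and 298 CPM with Ebf1, against 131 and 83.2 with the empty vector in Pax5-KO cells, and at 49.1 and 57.0 with Ebf1, against 0.137 and 0.104 with the empty vector in Ebf1-KO cells (difference of log2 effects -7.52 ± 0.52 SE, adjusted p = 1.3e-06). So it started near 0 in Ebf1-KO cells and ended higher in Pax5-KO cells. Cd79a had 34.2 and 41.7 CPM with Ebf1, against 0.549 and 0.518 with the empty vector in Ebf1-KO cells, the opposite direction to Pax5-KO cells (difference -7.35 ± 0.42 SE, adjusted p = 6.2e-07). Ly6d had 103 and 123 CPM with Ebf1, against 10.8 and 16.3 with the empty vector in Ebf1-KO cells, again opposite (difference -5.66 ± 0.54 SE, adjusted p = 3.8e-05). Pax5 had 37.2 and 33.1 CPM with Ebf1, against 2.24 and 2.49 with the empty vector in Ebf1-KO cells (difference -4.68 ± 0.41 SE, adjusted p = 1.8e-05). It is the gene knocked out in Pax5-KO cells, where its counts are the residue given above. Foxo1 rose in both backgrounds, with 258 and 236 CPM with Ebf1, against 23.0 and 21.3 with the empty vector in Ebf1-KO cells (difference -2.18 ± 0.24 SE, adjusted p = 1.7e-04). For Il2rb (difference 0.43 ± 0.36 SE, adjusted p = 0.82), Ccr9 (difference -1.13 ± 0.41 SE, adjusted p = 0.45) and Gzma (difference -1.13 ± 1.46 SE, adjusted p = 0.91) no difference between the backgrounds was called.

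**Figure D5:**
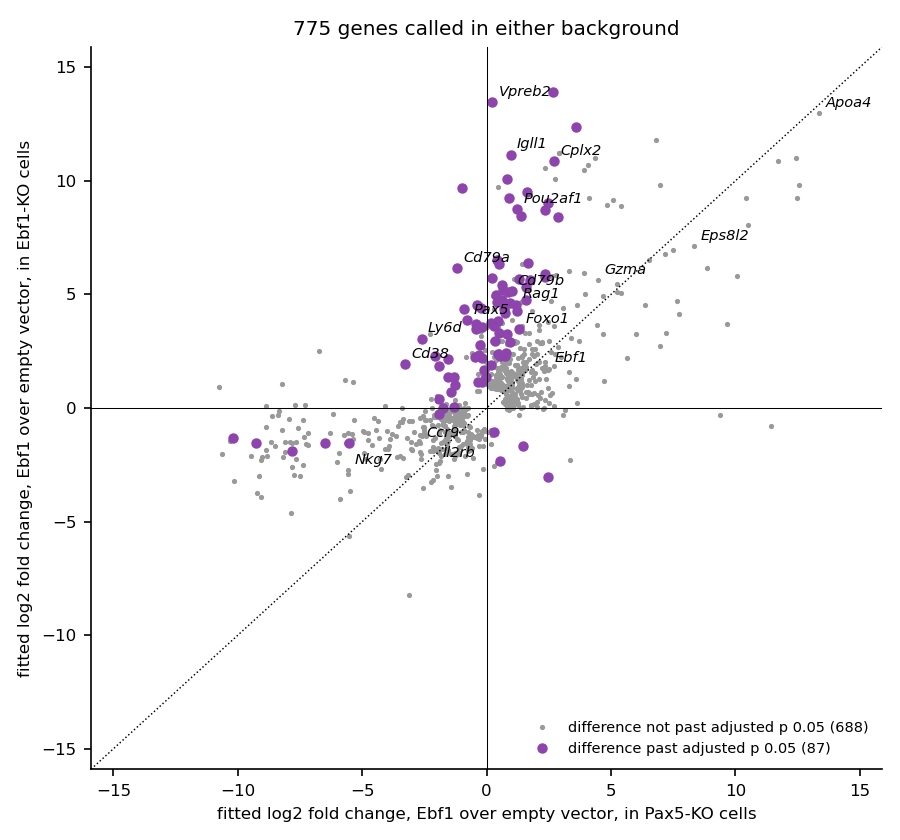
Fitted log2 fold change, Ebf1 over empty vector, in Pax5-KO cells (horizontal) and in Ebf1-KO cells (vertical) for the 775 genes called in either; the dotted line marks equal effects. Purple points are the 87 of them with a called difference between the backgrounds, and most lie above the dotted line, where the log2 fold change is higher in Ebf1-KO cells.

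The called genes were then set beside EBF1 peaks, as a description with no test. The peak list holds 17230 EBF1 peaks of the mouse pre-B line 230-238, called by the authors, and so comes from other cells than the RNA. A peak centre lay within 2 kb of the gene start for 118 of the 255 genes called higher (46.3%, exact 95% binomial interval 40.0 to 52.6%), for 82 of the 269 called lower (30.5%, 25.0 to 36.4%) and for 4542 of all 14550 tested (31.2%, 30.5 to 32.0%). Within the gene or 10 kb of it the shares were 83.1% of the higher genes, 61.3% of the lower genes and 57.9% of all tested. For peaks with an authors' score above the median, within 2 kb, they were 25.9% of the higher genes, 19.7% of the lower genes (15.1 to 25.0%) and 13.2% of all tested. Genes are not independent, so the intervals cover counting error only. Examples with a peak near the start were Plxna1, a receptor for semaphorins, at 622 bases, Cd79b at 101 bases and Pou2af1 at 405 bases among the higher genes, and Il2rb at 184 bases, Cd79a at 190 bases and Bcl2 at 96 bases among the lower genes. Plxna1 had the smallest adjusted p of all genes, with 475 and 537 CPM with Ebf1, against 38.4 and 26.3 with the empty vector (log2 fold change 3.97 ± 0.28 SE, adjusted p = 1.2e-05), and was chosen here after its values were seen.

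An EBF1-type motif, TCCC and GGGA parted by any 2 bases, which reads the same on both strands, was looked for in RefSeq promoter windows (GRCm38.p6, 250 bases before to 50 after the start). It was in 8 of the 185 windows of genes called higher (4.32%) and in 4 of the 191 windows of genes called lower (2.09%). Among windows of genes tested it was in 112 of 10945 (1.02%), and among all windows in 297 of 32817 (0.905%). The exact 95% binomial intervals were 1.89 to 8.34% for higher genes, 0.57 to 5.28% for lower genes and 0.84 to 1.23% for genes tested. Those of higher and lower genes overlap, and that of lower genes includes 1.02%. With the calls of DESeq2 it was in 15 of 526 windows of higher genes (2.85%) and 13 of 599 of lower genes (2.17%). A match is a description of letters and not a site. In 4 genes called higher and 3 called lower the window also held a peak centre. The 4 higher ones are shown because motif, peak and rise meet in them, with the motif in capitals.
Dpysl5: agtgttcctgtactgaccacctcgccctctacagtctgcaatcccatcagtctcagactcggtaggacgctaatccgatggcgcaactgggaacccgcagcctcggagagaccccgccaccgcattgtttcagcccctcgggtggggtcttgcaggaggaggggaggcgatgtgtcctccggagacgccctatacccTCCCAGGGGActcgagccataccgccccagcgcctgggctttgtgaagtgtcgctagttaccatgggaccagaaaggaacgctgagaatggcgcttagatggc
Acp6: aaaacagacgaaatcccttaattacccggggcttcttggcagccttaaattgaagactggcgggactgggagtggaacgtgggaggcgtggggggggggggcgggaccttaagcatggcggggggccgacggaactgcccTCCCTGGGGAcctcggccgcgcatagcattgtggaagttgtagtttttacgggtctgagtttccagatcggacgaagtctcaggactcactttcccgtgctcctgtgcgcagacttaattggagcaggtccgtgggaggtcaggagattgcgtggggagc
Zfp664: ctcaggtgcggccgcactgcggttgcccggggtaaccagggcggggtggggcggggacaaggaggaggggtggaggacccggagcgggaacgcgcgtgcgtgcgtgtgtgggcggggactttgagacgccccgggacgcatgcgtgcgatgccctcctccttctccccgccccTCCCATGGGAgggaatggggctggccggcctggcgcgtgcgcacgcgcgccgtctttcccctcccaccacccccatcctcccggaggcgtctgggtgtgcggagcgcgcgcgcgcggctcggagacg
Sipa1l1: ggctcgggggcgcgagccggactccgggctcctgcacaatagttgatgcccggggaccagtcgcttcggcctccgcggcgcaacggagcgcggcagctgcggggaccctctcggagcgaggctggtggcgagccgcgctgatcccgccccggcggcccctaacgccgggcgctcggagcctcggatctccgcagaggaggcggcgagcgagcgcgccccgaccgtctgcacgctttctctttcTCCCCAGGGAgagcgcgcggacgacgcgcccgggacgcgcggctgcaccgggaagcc
The Dpysl5 window (chr5:30711314-30711613, plus strand) has the motif from base -53 and the peak centre at -31 from the start. Dpysl5, a collapsin response protein of neurons, had 233 and 164 CPM with Ebf1, against 12.6 and 26.7 with the empty vector (log2 fold change 3.33 ± 0.79 SE, adjusted p = 0.032). The Acp6 window (chr3:97158527-97158826, plus strand) has the motif from base -110 and the peak centre at -76, and Acp6, a lipid phosphatase of mitochondria, had 96.8 and 66.1 CPM with Ebf1, against 16.3 and 14.7 with the empty vector (log2 fold change 2.39 ± 0.38 SE, adjusted p = 0.0031). Both rose severalfold, with separate groups. The Zfp664 window (chr5:124862455-124862754, plus strand) has the motif from base -77 and the peak centre at 27, and Zfp664, a zinc finger protein, had 244 and 219 CPM with Ebf1, against 133 and 95.4 with the empty vector (log2 fold change 1.02 ± 0.23 SE, adjusted p = 0.024). The Sipa1l1 window (chr12:82169766-82170065, plus strand) has the motif from base -7 and the peak centre at -26, and Sipa1l1, a regulator of RAP GTPases, had 259 and 237 CPM with Ebf1, against 150.2 and 136 with the empty vector (log2 fold change 0.79 ± 0.18 SE, adjusted p = 0.029). DESeq2 did not call Dpysl5 (adjusted p = 0.053). Dpysl5 (adjusted p = 0.077), Zfp664 (0.073) and Sipa1l1 (0.088) did not pass without the Ebf1 replicate 1. Dpysl5 (adjusted p = 0.17) and Sipa1l1 (0.082) did not pass without the empty-vector replicate 1. Dpysl5 (adjusted p = 0.15), Acp6 (0.065), Zfp664 (0.24) and Sipa1l1 (0.21) did not pass without the empty-vector replicate 2.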

How the data were processed

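Exon reads per gene were counted by the authors with HOMER, per the file headers, and deposited as whole-number counts without normalization. The submitters' processing notes name STAR 2.6.0b-1, HOMER 4.8 and mm10; a strand setting is not given in the sources used here. The peak list was deposited with a findPeaks score set by the authors, a normalized tag signal and a fold against control, a ratio the authors computed; only the score was used, to rank peaks. Counts were scaled by TMM and filtered with filterByExpr. They were fitted in edgeR 4.0.16 (R 4.3.3) with 1 quasi-likelihood model over 14 libraries in 7 groups, tested on simulated data, with DESeq2 1.42.0 as an alternative. Named genes were the 15 largest rises and 15 largest falls, list members that passed and the most abundant list members, and 25 fixed genes. The lists and members were chosen with earlier results of these data known. The unnumbered Pax5-KO empty-vector column was taken as replicate 1. Bounds use 3 counts over the group and intervals are 95% Clopper-Pearson, and both cover counting error only. Each SE was derived from the test, as the absolute log2 fold change over the square root of the quasi-likelihood F statistic. It is approximate, above all where a library has 0 counts. P-values reflect only how far these samples vary, which can be technical. A few named genes are not reported here. A total of 0 sample columns were left unused.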

Additional observations from a re-analysis of the deposited data

Results flagged for a closer look

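For 15 named genes the effect of the Ebf1 vector differed between Pax5-KO and Ebf1-KO cells by a test of the difference itself (edgeR, adjusted p under 0.05), and each had the lower value in Pax5-KO cells. Differences are log2 effects in Pax5-KO minus in Ebf1-KO cells. Where a group has 0 counts the fitted difference depends on the prior count and only its sign can be read, which holds for Sapcd1, Cplx2 and Vpreb2. Beside the difference of the surrogate light chain genes Igll1 (-10.18), Vpreb1 (-7.07) and Vpreb2 (-13.24) stand Ebf1-KO empty-vector levels of 0.320 and 0.414, 0.412 and 0.345 and 0 and 0 CPM. The receptor chains gave -7.35 for Cd79a and -4.15 for Cd79b. Among regulators the values were -7.52 for Pou2af1, -4.68 for Pax5 and -2.18 for Foxo1, and the recombinase gene Rag1 had -3.37. Pax5 is the gene knocked out in Pax5-KO cells, so its counts there are a residue, and it shares its span with 5730488B01Rik and Mir5120. For the surface proteins they were -5.66 for Ly6d, -5.18 for Cd38 and -1.51 for Cd93. The remaining ones were -8.15 for Cplx2, -1.58 for Prkcb and -7.73 for Sapcd1. Of these, Cd79a, Ly6d, Cd38 and Sapcd1 fell in Pax5-KO cells. The part of sex-linked differences between the backgrounds was not tested.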

How the results depend on the processing

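No named gene that was called in the main fit or in an alternative changed its direction between them. Changes of sign in genes called in neither were not counted. Counts of genes are given as higher and lower with Ebf1. For Ebf1 against empty vector in Pax5-KO cells (255 and 269) they were 560 and 670 without a filter on low counts, 695 and 811 by DESeq2, and 53 and 14 when only the 4 libraries were fitted; leaving out 1 library gave 48 to 827 and 67 to 1360. DESeq2 called 249 of the 255 and all 269; the calls it did not make include Gzma, Fetub, Bean1, Enpp3 and Dpysl5. With the replicate block there were 382 and 439, and all 524 called genes were kept. Whether the numbers pair the samples is not settled: deviations of same-numbered libraries correlated at 0.0764 between the 2 Pax5-KO groups and over 0.1 in 13 of all 21 pairs of groups (range -0.0586 to 0.236, with 0 of the 6 pairs that include wild-type cells over 0.1). Neither labels nor headers say what a number shares. For the difference between backgrounds (5 and 84) the counts were 64 and 205 without the filter, 44 and 180 by DESeq2, 8 and 100 with the replicate block, and 0 to 128 and 44 to 499 without 1 library. For Ebf1 against Pax5 (529 and 463) they were 954 and 778 without the filter, 1110 and 913 by DESeq2, and 159 to 1165 and 177 to 1439 without 1 library. List members called (19 and 29) were 29 and 56 without the filter, 34 and 51 by DESeq2, 3 and 5 in the 4 libraries, and 5 to 30 and 11 to 63 without 1 library. Peak shares of higher and lower genes (46.3 and 30.5%) were 66.7 and 49.8% within 10 kb, where all genes tested had 45.9%, and 25.9 and 19.7% for peaks with a score above the median, where all had 13.2%. Motif shares (4.32 and 2.09%) were 2.85 and 2.17% with DESeq2 calls. Scaling by DESeq2 size factors left the counts of calls within 1.5 times. The causes of these shifts were not tested. With 2 libraries a group, a gene that did not pass is not shown to be unchanged.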

Other observations

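Among abundant genes, those that averaged at least 100 CPM in the higher group, the largest changes reached genes outside the lists; they were taken after their values were seen. Ppl, a plakin of epithelial junctions, had 319 and 252 CPM with Ebf1, against 9.39 and 4.07 with the empty vector (log2 fold change 5.42 ± 0.55 SE, adjusted p = 1.5e-04), and Slc16a14, an orphan transporter, had 199 and 124 CPM with Ebf1, against 4.88 and 9.77 with the empty vector (log2 fold change 4.45 ± 0.60 SE, adjusted p = 0.0012). Hivep3, a zinc finger protein, had 219 and 120.5 CPM with Ebf1, against 20.4 and 8.01 with the empty vector (log2 fold change 3.58 ± 0.45 SE, adjusted p = 7.0e-04). All 3 passed without each of the 4 libraries in turn. Of the falls, Gimap4, a GTPase of lymphocytes, had 40.0 and 35.1 CPM with Ebf1, against 168 and 127 with the empty vector (log2 fold change -1.98 ± 0.31 SE, adjusted p = 0.0031), and Tnfrsf13c, the receptor for the B cell survival factor BAFF, had 83.9 and 74.4 CPM with Ebf1, against 254 and 349 with the empty vector (log2 fold change -1.93 ± 0.26 SE, adjusted p = 0.0012). Prr5, a subunit of the mTORC2 complex, had 24.7 and 50.5 CPM with Ebf1, against 141 and 143 with the empty vector (log2 fold change -1.91 ± 0.31 SE, adjusted p = 0.0032). These also passed in all 4 such fits. Cdh1, which codes for E-cadherin, had 23.8 and 36.7 CPM with Ebf1, against 94.9 and 158 with the empty vector (log2 fold change -2.06 ± 0.51 SE, adjusted p = 0.038). Cdh1 (adjusted p = 0.12) did not pass without the Ebf1 replicate 1. Cdh1 (adjusted p = 0.067) did not pass without the empty-vector replicate 1. Cdh1 (adjusted p = 0.32) did not pass without the empty-vector replicate 2.

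The 4 gene families given here were grouped by symbol, again after the values were seen and with no test. In each, the members called lay in 1 direction, which can follow from that choice. Over all genes tested 1.75% were called higher and 1.85% lower. Of 8 plexins, receptors for semaphorins, 4 rose and 0 fell. Besides Plxna1 these were Plxna2, with 259 and 104 CPM with Ebf1, against 50.1 and 52.9 with the empty vector (log2 fold change 1.82 ± 0.42 SE, adjusted p = 0.027), Plxna3, with 71.7 and 40.0 CPM with Ebf1, against 18.2 and 7.93 with the empty vector (log2 fold change 2.10 ± 0.45 SE, adjusted p = 0.020), and Plxnd1, with 190.4 and 285 CPM with Ebf1, against 93.1 and 87.6 with the empty vector (log2 fold change 1.40 ± 0.24 SE, adjusted p = 0.0059). Of 15 killer cell lectin-like receptors 3 fell and 0 rose, among them Klri2, with 0.721 and 0.553 CPM with Ebf1, against 25.4 and 35.4 with the empty vector (log2 fold change -5.59 ± 0.63 SE, adjusted p = 2.7e-04), and Klrb1f, with 5.35 and 4.77 CPM with Ebf1, against 33.7 and 29.0 with the empty vector (log2 fold change -2.63 ± 0.36 SE, adjusted p = 0.0013). Of 15 chemokine receptors 5 fell and 0 rose, among them Ccr7, Ccr9, Cxcr5 and Cxcr6. Of 8 Gimap GTPases 3 fell and 0 rose. Plxna2 (adjusted p = 0.17), Plxna3 (0.081) and Gimap6 (0.091) did not pass without the Ebf1 replicate 1. Plxna2 (adjusted p = 0.13), Cxcr6 (0.062), Gimap6 (0.096) and Gimap7 (0.081) did not pass without the empty-vector replicate 1. Plxna2 (adjusted p = 0.19), Plxna3 (0.21), Plxnd1 (0.084), Cxcr6 (0.090), Gimap6 (0.12) and Gimap7 (0.065) did not pass without the empty-vector replicate 2.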
